A study of Homo sapiens with 9 samples.

Results

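The genes of the cytosolic ribosomal proteins were followed through 9 RNA-seq libraries of HCT116, an established cell line from a human colorectal cancer. They were taken as protein-coding genes whose symbol is RPL or RPS with a number, together with RPLP0, RPLP1, RPLP2 and RPSA. Names with a Y, of which there were 2, were left out. This gave 84 of the 60651 genes in the count table, 52 of the large and 32 of the small subunit. Of these, 77 encode core proteins, 46 of the large and 31 of the small subunit, and 7 are paralogs whose symbol adds L or L1 to that of a core gene.

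Each cytosolic ribosome carries a single copy of nearly every core protein, with the acidic stalk proteins RPLP1 and RPLP2 as the main exception, so growing cells make these proteins in matched amounts. Their mRNAs are short and abundant and start with a cytosine followed by a run of pyrimidines, the 5' terminal oligopyrimidine (TOP) motif. Through that motif the mTORC1 kinase controls their translation and, with the protein LARP1, their stability. Free RPL5 and RPL11, bound to 5S RNA, bind and inhibit the ubiquitin ligase MDM2.

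The labels place the 9 libraries in 3 groups of 3, all of wild-type HCT116 cells. The groups carried a hairpin RNA directed at the dopamine transporter gene SLC6A3 with the solvent DMSO (shSLC6A3 DMSO), a control hairpin with a treatment abbreviated VXN (shCTRL VXN), or the control hairpin with DMSO (shCTRL DMSO). For replicate 3 of the VXN group, the title has VNN where the treatment field has VXN. No label says that replicates came from separate cultures, so p-values measure the spread between these libraries only, which may be technical. Alongside the counts came 2 tables of the authors' own tests, here called the V table (shCTRL V over shCTRL D) and the DAT table (shDAT D over the same shCTRL D). Their p-values are not those of the labelled groups.

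A rerun of DESeq2 on 3 other sets of libraries gave all 38907 p-values of the authors' deposited table for V, and all 38907 of that for DAT, to within 1e-06, the 84 members included. The labelled groups gave 0% and 1.41% of them. Behind V stood 3 libraries, labelled shSLC6A3 DMSO replicate 1, shCTRL DMSO replicate 3 and, from the VXN group, replicate 3. Behind DAT stood replicates 1 and 2 of shCTRL DMSO and replicate 1 of shCTRL VXN. Behind D, which both tables share, stood replicates 2 and 3 of shSLC6A3 DMSO and replicate 2 of shCTRL VXN. V, DAT and D below mean these columns and say nothing of what the cells received.

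Total counts ran between 30251364 and 60215785 per library. SLC6A3 had between 0 and 6 counts in every library, so its mRNA gave no check of the labels. The proliferation marker MKI67 was at 62.2 to 74.4 CPM (each library's counts scaled to a common total with edgeR's TMM factors) in the V columns, 519 to 611 CPM in the DAT columns and 571 to 587 CPM in the D columns. Its level therefore moved with the V against D results below, and its part in them was not tested. Of 12 colon epithelial markers 8 averaged at least 1 CPM, and their sum was 4410 to 5302 CPM in every library. Leukocyte, fibroblast and endothelial markers summed to at most 7.31, 47.8 and 1.58 CPM, with 1 of 8, 1 of 7 and 0 of 4 averaging at least 1 CPM, and PTPRC, which marks leukocytes, had 0 to 2 counts. The libraries labelled shCTRL VXN have library numbers in a range of their own, so number range and VXN cannot be told apart, and each of V, DAT and D holds 1 of them. In bulk samples such as these, fewer cells of a kind and less RNA per cell cannot be told apart either.

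The start of each mRNA is shown first because the TOP motif is the sequence that sets these genes apart and acts in their control. RefSeq start windows on GRCh38.p14 were found for 67 of the 84 members. A TOP start was counted when the annotated first base was C and at least 5 pyrimidines in a row opened the transcript, taking the start with the longest run where a gene has several. By that count 47 of 67 members (70.1%) had one, against 5.14% of 27305 genes. Of the core genes with an entry, 46 of 62 had a TOP start, and of the paralogs 1 of 5. The windows below hold 10 bases before and 20 from the annotated start, 5' to 3' on the strand of the gene, with the opening pyrimidine run in capitals. They are given for a selection of the genes described below at the ends of the V against D and VXN against DMSO comparisons, with paralog partners, RPLP0 and RPS6. RPS2 has no entry.
RPS27L, chr15:63157458-63157487, minus strand: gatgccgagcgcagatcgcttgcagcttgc
RPS27, chr1:153990752-153990781, plus strand: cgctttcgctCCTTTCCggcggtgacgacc
RPL10, chrX:154398367-154398396, plus strand: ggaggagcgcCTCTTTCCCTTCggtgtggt
RPS12, chr6:132814559-132814588, plus strand: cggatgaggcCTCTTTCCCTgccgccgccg
RPS19, chr19:41860245-41860274, plus strand: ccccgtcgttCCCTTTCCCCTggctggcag
RPL22L1, chr3:170870176-170870205, minus strand: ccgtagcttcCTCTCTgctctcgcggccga
RPL22, chr1:6199576-6199605, minus strand: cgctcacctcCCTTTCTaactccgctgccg
RPS9, chr19:54200848-54200877, plus strand: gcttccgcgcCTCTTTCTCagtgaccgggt
RPL7A, chr9:133348208-133348237, plus strand: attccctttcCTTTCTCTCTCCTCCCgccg
RPS26, chr12:56041908-56041937, plus strand: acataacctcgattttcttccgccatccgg
RPLP0, chr12:120201092-120201121, minus strand: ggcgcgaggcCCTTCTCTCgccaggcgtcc
RPS6, chr9:19380217-19380246, minus strand: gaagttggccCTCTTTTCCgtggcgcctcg
RPS29, chr14:49598691-49598720, minus strand: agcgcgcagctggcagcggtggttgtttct
RPS21, chr20:62387093-62387122, plus strand: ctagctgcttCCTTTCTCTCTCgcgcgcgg
RPL35, chr9:124861938-124861967, minus strand: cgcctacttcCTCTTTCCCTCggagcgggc

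Among paralogs, RPL22L1 has a TOP start like RPL22, while no pyrimidine run opens RPS27L and RPS27 starts with one. RPS26 and RPS29 show no run at the annotated start, which need not be the start used in these cells. TOP starts stood in 13 of 15 members higher in V, 10 of 14 lower and 24 of 38 not called, as a description.

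Upstream of the start, the letters CGGAAG, the core bound by ETS factors, were searched on both strands of 300 bases (250 before and 50 after the start). They occurred in 42 of 67 members (62.7%), against 22.6% of 27305 genes. For the GC box GGGCGG the shares were 58.2% of members and 48.3% of genes, and for TATAAA 10.4% and 14.0%. For the YY1-like AAGATGG the shares were 13.4% and 7.11%, and for the E-box CACGTG 7.46% and 8.77%. The CGGAAG core stood in 12 of 15 members higher in V and 7 of 14 lower. GGGCGG stood in 10 of the higher and 6 of the lower members, and AAGATGG in 0 and 5. CACGTG stood in 1 and 1, and TATAAA in 1 and 2. No difference between the higher and lower members was tested. The 150 bases before the start of RPS27L and RPS27, the paralog pair that rose together in V, each hold 1 match, in capitals on either strand. None was found in the 300 bases of RPL22L1 or RPL22.
RPS27L upstream, chr15:63157478-63157627, minus strand: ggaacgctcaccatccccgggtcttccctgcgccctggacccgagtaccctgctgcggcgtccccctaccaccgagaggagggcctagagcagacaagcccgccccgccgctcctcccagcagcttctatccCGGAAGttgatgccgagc
RPS27 upstream, chr1:153990612-153990761, plus strand: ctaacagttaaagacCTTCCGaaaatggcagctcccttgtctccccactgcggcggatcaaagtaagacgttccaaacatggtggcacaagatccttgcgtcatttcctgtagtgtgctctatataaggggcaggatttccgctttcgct

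The transcripts are compact. The shortest APPRIS principal transcript in GENCODE v29 had a median length of 705 bases over the 77 core genes and 2475 over 19641 protein-coding genes, and medians of 5 and 8 exons. The members lie on 21 chromosomes, with 12 on chromosome 19 and 4 on X.

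Of the 84 members, 81 had at least 500 counts in every library. The core genes' means over 9 libraries ran between 120 and 2100 CPM, with a median of 615 CPM. Levels can be set between genes only per length. On the scale of CPM per kilobase of that transcript, RPS2 (2132), RPL13 (2129), RPS18 (1908), RPL41 (1809) and RPL8 (1788) were highest. RPS2 sits at the mRNA entry channel of the small subunit, and RPL41 is the smallest ribosomal protein.

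The lowest members by this scale were paralogs. RPL3L, a form known from muscle, had 0 to 9 counts in every library, and RPL10L and RPL39L, known from testis, had 0 to 4. These 3 did not pass the filter on low counts. RPS27L stood at 7.67 CPM per kilobase, where its annotated transcript is 6434 bases long, and RPL26L1 at 27.7. RPL37 was the lowest core gene at 75.8, also with a long annotated transcript (7686 bases). The order at the low end therefore rests on the annotation.

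Paralogs were measured beside their partners, whose reads they can share where sequences are identical. Without regard to length, RPL22L1 had 73.8% of the CPM of RPL22, RPL7L1 21.3% of RPL7, RPS27L 13.7% of RPS27 and RPL26L1 3.97% of RPL26. In CPM per kilobase, RPL22L1 had 103 against 147 for RPL22, and RPL7L1 54.5 against 875 for RPL7. RPS27L had 7.67 against 1006 for RPS27, and RPL26L1 27.7 against 897 for RPL26. These values rest on the annotated lengths, 6434 bases for RPS27L and 359 for RPS27. Coding sequences were 66.7% identical between RPL22L1 and RPL22, with a longest shared run of 17 bases, and 77.8% between RPS27L and RPS27, with a run of 20. RPL39L and RPL39 were closest at 94.8%, and RPL10L and RPL10 shared the longest run, 50 bases. Members also have 1206 pseudogene rows under their names. These rows held 1.3% to 1.55% as many counts as the members in each library, and above 5% for 4 genes, led by RPS2 (7.5%), RPS26 (6.42%) and RPL23A (6.15%). How reads were divided between such copies is not given in the sources used here, so small changes of these genes are uncertain.

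The 84 genes together took between 5.13% and 5.87% of all counts. The share was 5.39%, 5.38% and 5.38% in the V columns, 5.55%, 5.71% and 5.87% in the DAT columns and 5.20%, 5.13% and 5.76% in the D columns. The V columns lay within the range of the D columns and spread far less, with means of 5.38% ± 0.00792 in V and 5.36% ± 0.346 in D (SD, n = 3 each). The DAT mean was 5.71% ± 0.159 (SD, n = 3), and the DAT and D libraries overlapped. By label, the means were 5.24% ± 0.131 in shSLC6A3 DMSO, 5.67% ± 0.258 in shCTRL VXN and 5.55% ± 0.158 in shCTRL DMSO (SD, n = 3 each). The shSLC6A3 DMSO libraries (5.13% to 5.38%) lay below the shCTRL DMSO libraries (5.39% to 5.71%), the nearest of them at 5.38% and 5.39%. Large-subunit genes made up 62.9% to 64.5% of member counts in every library. No test was run on the share, since the genes were chosen with results known.

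**Figure D1:**
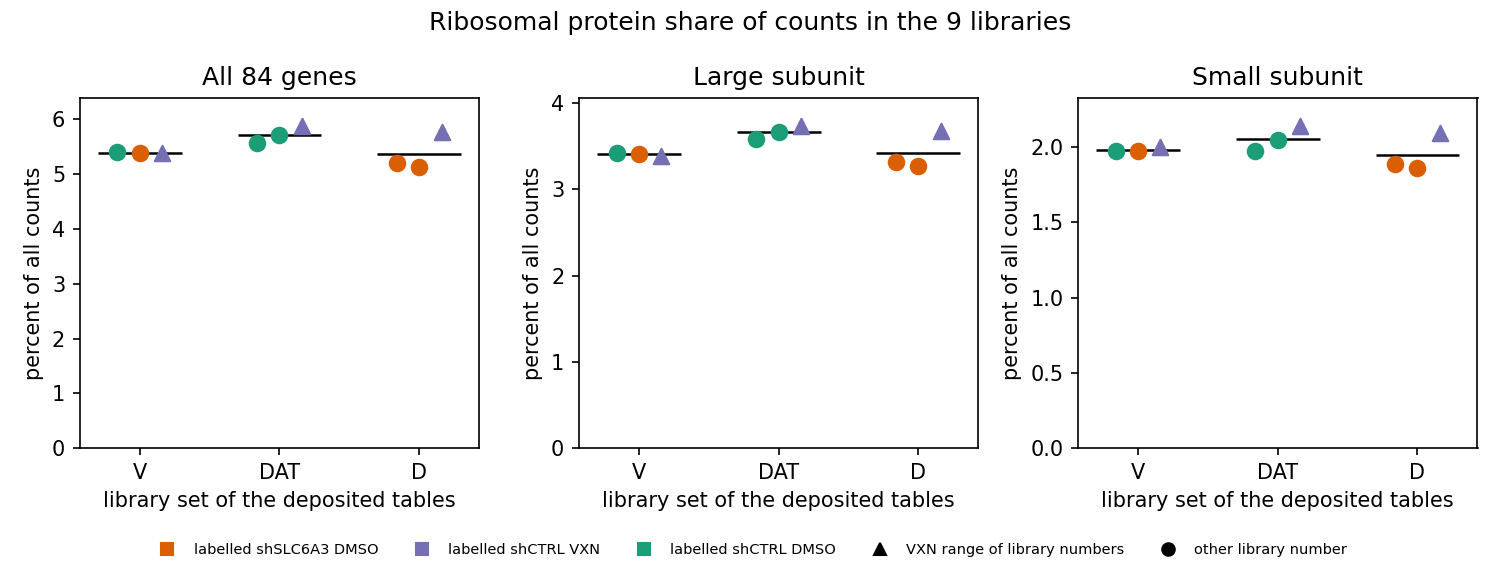
Ribosomal protein counts as a percent of all counts in each library, for all 84 genes and for each subunit, by the V, DAT and D columns of the deposited tables. Points are libraries coloured by label, triangles are libraries of the VXN number range, and bars are means of 3; the V libraries sit between 5.38% and 5.39%, inside the D range of 5.13% to 5.76%.

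Within the libraries outside the VXN number range, the V columns averaged 5.39% and the D columns 5.16%. Within the VXN-labelled libraries, 1 of each, V stood at 5.38% and D at 5.76%. DAT stood above D in both, at 5.63% against 5.16% and at 5.87% against 5.76%.

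In the V against D comparison ribosomal protein genes moved in both directions by small amounts. The authors' deposited table called 19 members higher and 17 lower of 82 with an adjusted p, at an adjusted p below 0.05 (DESeq2). By that rule it called 44.0% of 24274 features, 21.4% higher and 22.7% lower, and 43.9% of these members, so the members' share was that of the background. The median log2 fold change in the authors' deposited table was -0.0015 over members and -0.0016 over all features. On the column sets themselves, edgeR with TMM scaling called 21 of 81 members higher and 12 lower, beside 5714 and 5425 of 20402 features. With upper-quartile scaling it called 24 higher and 10 lower, beside 6011 and 5180 features. The balance of directions moved with the scaling, for members and for all features. With library totals it called 18 higher and 17 lower, beside 5329 and 5770 features. With the number range as a term it called 26 higher and 17 lower, beside 6296 and 5823 features.

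The size of the changes was narrow for genes of this abundance. All 77 core genes had a change under 0.5 in size on the log2 scale in the authors' deposited table, against 61.9% of 2065 other genes that averaged at least 100 CPM. The quartiles in the authors' deposited table were -0.11 and 0.14 for the core genes and -0.47 and 0.26 for those other genes. It called 42.9% of the core genes, against 70.8% of the others. No test was made of this difference, since the genes were chosen with results known.

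**Figure D2:**
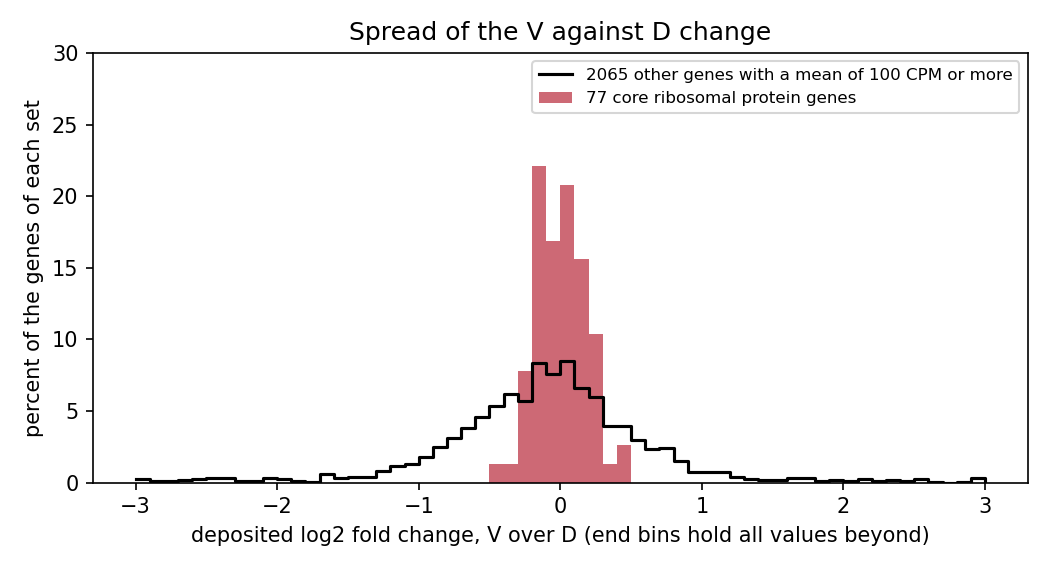
Percent of genes in each 0.1-wide bin of the deposited log2 fold change, V over D, for the 77 core ribosomal protein genes (filled) and 2065 other genes with a mean of at least 100 CPM (line). The core genes lie within 0.5 of 0 on either side, while 61.9% of the other genes do.

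RPS27L, the paralog of RPS27, was the member that rose most. It stood at 62.8, 59.9 and 58.9 CPM in the V columns, 43.3, 46.3 and 46.7 CPM in the DAT columns and 42.4, 39.9 and 43.6 CPM in the D columns. The V libraries were all above the other 6. Its log2 fold change in the authors' deposited table was 0.50 (SE 0.066, adjusted p = 2.77e-13, DESeq2). Its partner RPS27, a zinc-finger protein of the small subunit, stood at 463, 462 and 386 CPM in V, 327, 338 and 324 CPM in DAT and 334, 320 and 297 CPM in D. RPS27 rose by 0.43 (SE 0.088, adjusted p = 3.23e-06, DESeq2) in the authors' deposited table, again with no V library below any other.

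RPL10, a late-joining protein of the large subunit near the peptidyl transferase centre, stood at 835, 843 and 1007 CPM in V, 604, 598 and 744 CPM in DAT and 600, 589 and 761 CPM in D. In every set the library labelled VXN was the highest, and no V library overlapped a D library. The change in the authors' deposited table was 0.42 (SE 0.122, adjusted p = 0.00127, DESeq2). RPS12, a protein of the small subunit's beak, averaged 1029 ± 52.8 CPM in V, 746 ± 96.8 CPM in DAT and 767 ± 38.7 CPM in D (SD, n = 3 each), and rose by 0.39 in the authors' deposited table. No V library of RPS12 or RPS19 overlapped a D library. RPS19, mutated in Diamond-Blackfan anaemia, averaged 846 ± 40.2 CPM in V and 677 ± 60.7 CPM in D (SD, n = 3 each) and rose by 0.29 there, in the authors' deposited table. RPS6, the target of S6 kinase, stood at 1675, 1662 and 1592 CPM in V and 1360, 1368 and 1340 CPM in D, and rose by 0.25 (adjusted p = 4.8e-06, DESeq2) in the authors' deposited table.

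On the lower side stood the paralog pair RPL22L1 and RPL22. RPL22 is a large-subunit protein known to be dispensable for translation, and in mice it represses Rpl22l1. RPL22L1 had 187, 195 and 175 CPM in V, 210, 254 and 244 CPM in DAT and 280, 268 and 214 CPM in D. It fell by 0.46 in V (SE 0.115, adjusted p = 0.000135, DESeq2) in the authors' deposited table. RPL22 had 269, 272 and 271 CPM in V, 318, 334 and 341 CPM in DAT and 317, 314 and 311 CPM in D, with every V library below every other, and fell by 0.24 in the authors' deposited table.

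RPS9 and RPS2, neighbours at the mRNA entry channel of the small subunit, fell together. RPS9 had 315, 322 and 326 CPM in V, 423, 440 and 477 CPM in DAT and 401, 402 and 454 CPM in D, and fell by 0.40 (SE 0.069, DESeq2) in the authors' deposited table. RPS2 had 1728, 1779 and 1699 CPM in V, 2331, 2221 and 2420 CPM in DAT and 2190, 2204 and 2330 CPM in D, and fell by 0.39 (SE 0.054, DESeq2) in the authors' deposited table. For both genes the V libraries lay below the other 6. RPL7A (fell by 0.28), a large-subunit protein, and RPS26 (fell by 0.27), which lines the mRNA exit channel, followed in the authors' deposited table. RPL7A had 867, 861 and 827 CPM in V, 1127, 1090 and 1101 CPM in DAT and 990, 1011 and 1067 CPM in D. RPS26 had 132, 129 and 119 CPM in V, 154, 144 and 142 CPM in DAT and 148, 150 and 151 CPM in D. In both genes every V library was below the other 6. RPSA, the laminin receptor precursor, fell by 0.26 (adjusted p = 0.00279, DESeq2) in the authors' deposited table. It averaged 676 ± 35.0 CPM in V and 798 ± 54.6 CPM in D (SD, n = 3 each).

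**Figure D3:**
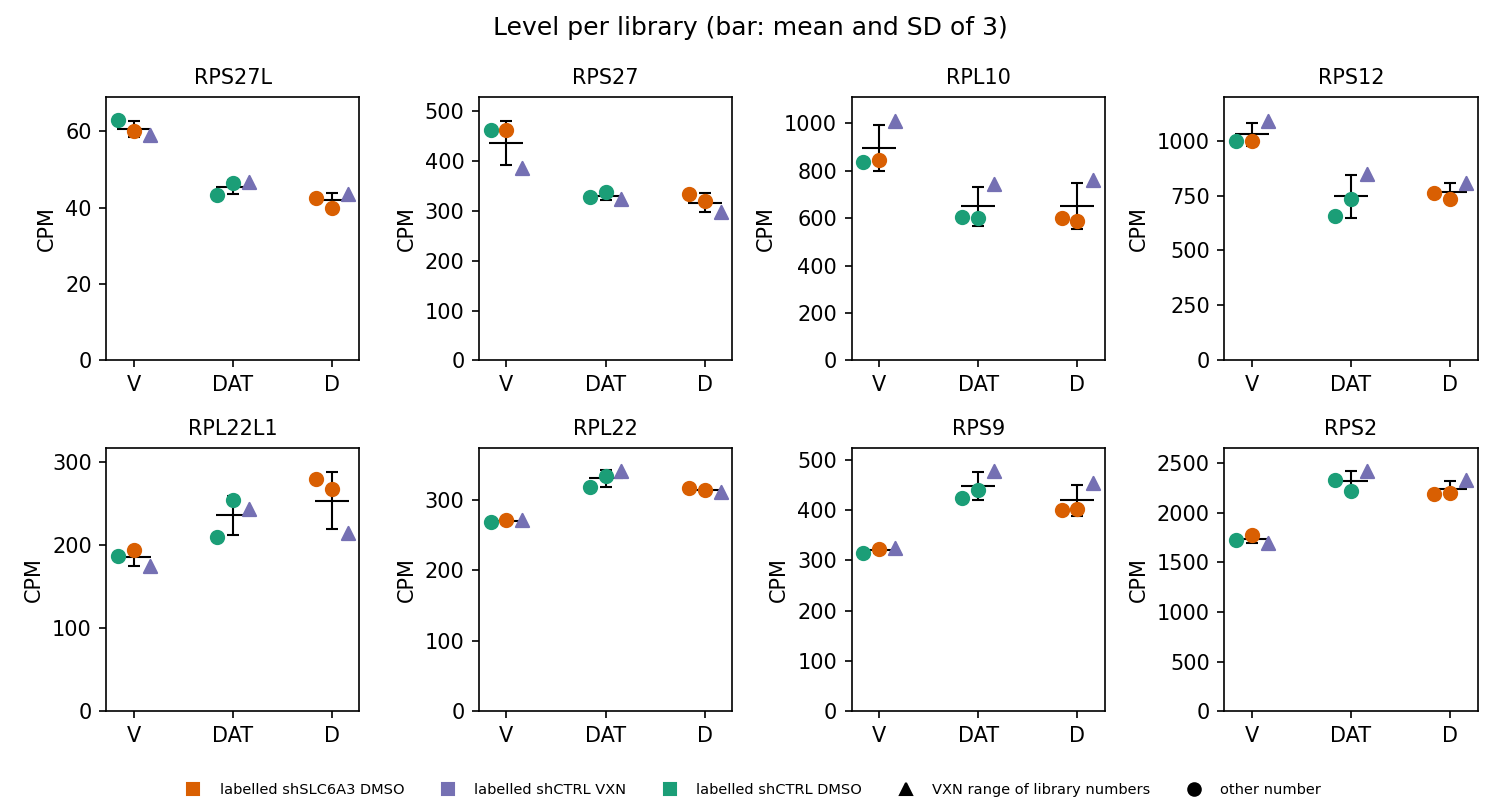
CPM of 8 named genes in each library, by the V, DAT and D columns, with mean and SD of 3. In all 8 panels the V libraries stand above or below all 3 D libraries, and colours and triangles mark labels and library numbers.

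The P stalk, which calls translation factors to the large subunit, did not move as a block. RPLP0, its base, had 2109, 2125 and 2110 CPM in V and 1776, 1773 and 1870 CPM in D and rose by 0.20 in the authors' deposited table. RPLP1 had 1167, 1172 and 1180 CPM in V and 1009, 975 and 998 CPM in D and rose by 0.21 there, in the authors' deposited table. RPLP2 had 694, 696 and 705 CPM in V and 705, 677 and 660 CPM in D, where the libraries overlap, and its change of 0.01 (SE 0.060) in the authors' deposited table did not pass the test. RPL5 and RPL11, which carry 5S RNA to MDM2, both fell in V, by 0.17 and 0.16 in the authors' deposited table. RPL7L1 fell by 0.21 and its partner RPL7 had -0.10 (not called) in that same authors' deposited table. RPL26L1 had -0.17 and RPL26 0.06 in the authors' deposited table, neither called.

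**Figure D4:**
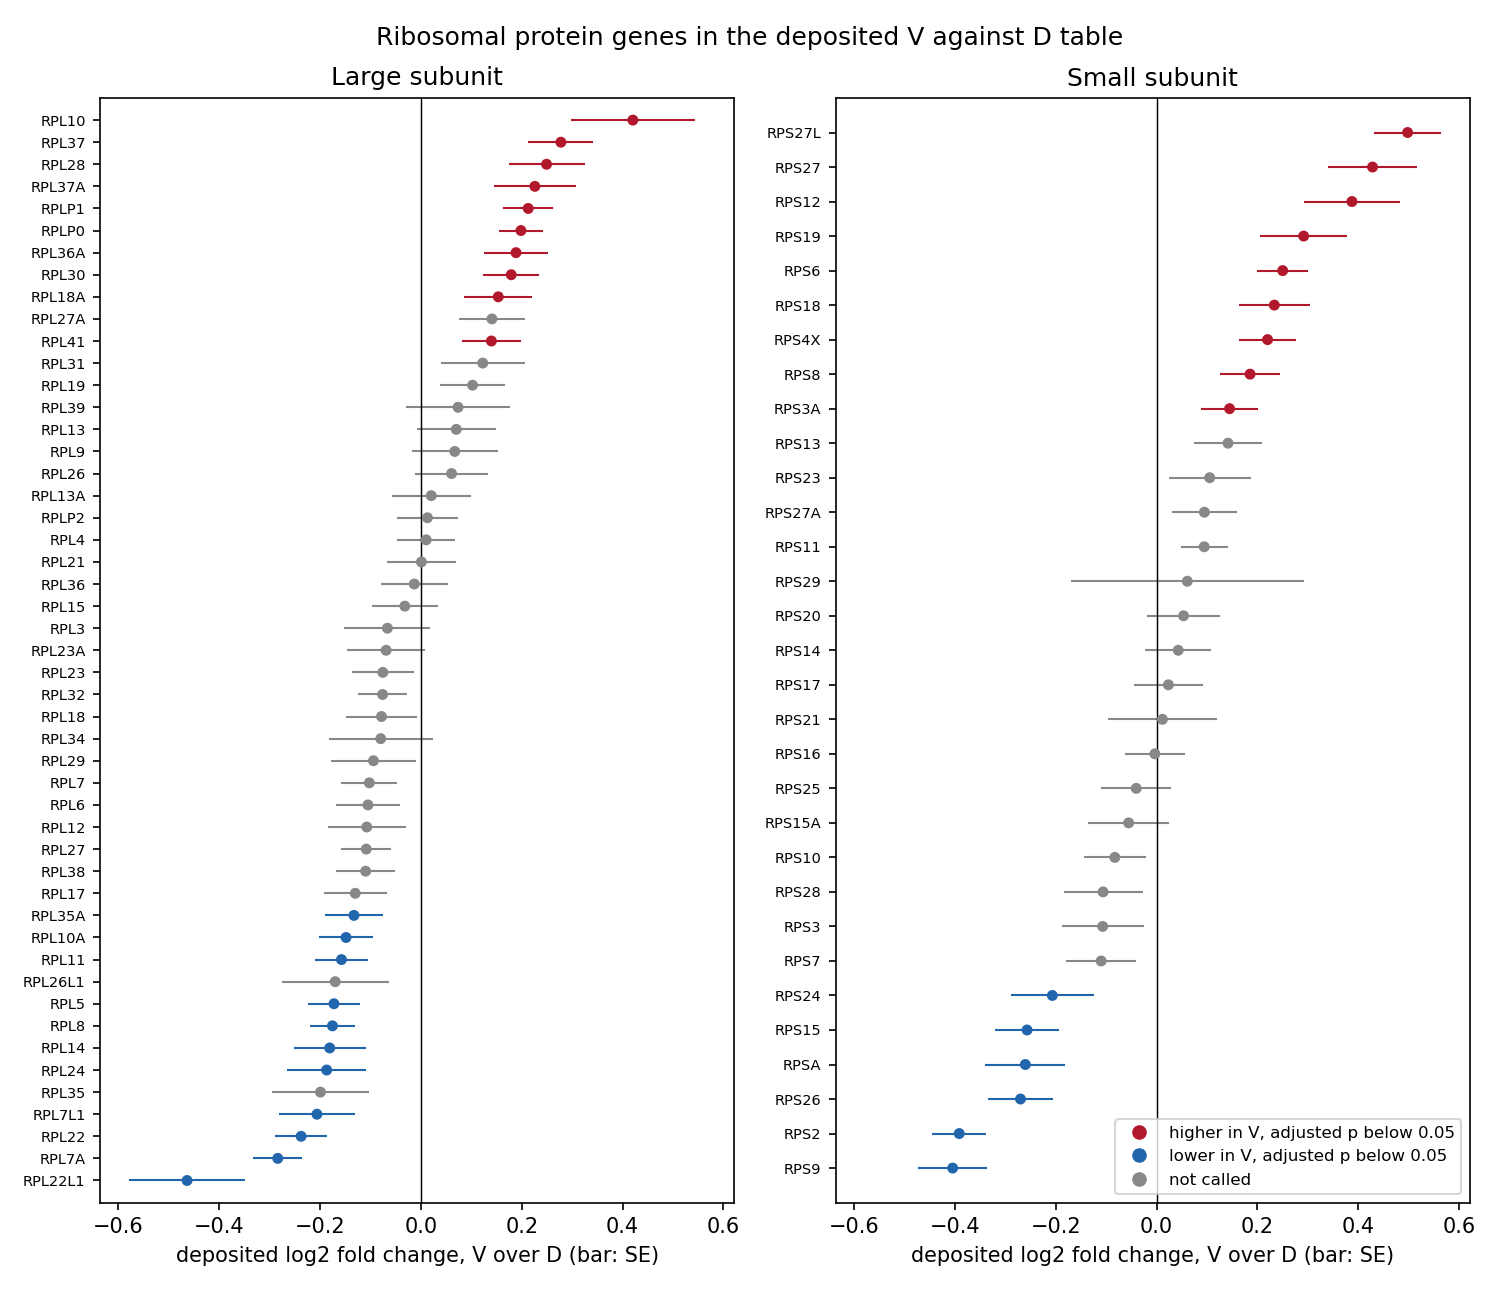
Deposited log2 fold change, V over D, of large-subunit and small-subunit members in rank order, with bars for the SE and colours for calls at an adjusted p below 0.05. RPL10 and RPS27L lead the higher end at 0.42 and 0.50, and RPL22L1 and RPS9 the lower end at -0.46 and -0.40; members with at most 9 counts in every library are left out, and not every other member is drawn.

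Small-subunit core genes had 8 calls up and 6 down among 31, and large-subunit core genes 10 and 9 among 46, in the authors' deposited table. For 34 of the 36 called members, no V library overlapped any D library. That count uses the same values as the calls and is no separate support for them. Over all 81 members tested, 24 lay wholly above and 21 wholly below D, or 45 in all, against 31.6% of features wholly above and 28.8% wholly below. Over all 77 core genes, 48 were above 0 in V minus D outside the VXN number range (median log2 difference 0.06, 2 libraries against 2) and 33 within it (median -0.03, 1 against 1). Calls were followed under 12 alternatives, 1 of them the DESeq2 rerun, which gave the deposited p-values and so could not lose a call. Of the 36 called members, 22 kept their call under all 12 alternatives, 13 higher and 9 lower. Among them were the called genes named above except RPL5, RPL11, RPL7L1 and RPL41, which lost its call under 6 of the 12. Without shSLC6A3 DMSO replicate 3 or shCTRL VXN replicate 3, RPL11 was no longer called, and RPL5 was not called with upper-quartile scaling. RPL7L1 lost its call without shCTRL DMSO replicate 3 or any shSLC6A3 DMSO replicate.

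Other genes of ribosomal protein synthesis, assembly and turnover were counted in 6 lists, beside 21.4% of all features called higher and 22.7% called lower. Of 14 genes for chaperones and assembly adaptors, 10 fell and 0 rose, with a median of -0.44 in the authors' deposited table. They include PDCD2L, an escort of the small-subunit protein RPS2 (-0.65), BYSL and NOB1, small-subunit assembly factors (-0.47 and -0.43), and GRWD1, related to the yeast chaperone of Rpl3 (-0.71), in the authors' deposited table. Of 28 initiation factors, 16 fell and 2 rose, with a median of -0.32 in the authors' deposited table. EIF2B3, EIF3B and EIF3K had -1.08, -0.62 and -0.55, while EIF1, which guards start-codon choice, had 0.54, in the authors' deposited table.

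Of 23 other genes with TOP starts or in translation elongation, 3 rose and 10 fell in the authors' deposited table. Among these, TPT1 (0.84) and EEF1A1 (0.66) rose, and HNRNPA1 (-0.86) and IPO5 (-0.89) fell, in the authors' deposited table. The mTORC1 control list had 4 up and 4 down among 18, led by TSC2 (0.40), PDCD4 (0.58), MTOR (-0.38) and TSC1 (0.37) in the authors' deposited table. In the 5S RNA and MDM2 list 5 of 8 tested rose and 2 fell, among them CDKN1A (1.49), MDM2 (0.52) and BRIX1 (-0.80) in the authors' deposited table. The list of ribosomal protein degradation and ribosome quality control had 4 up and 4 down among 12, led by RNF10 (0.49), HUWE1 (-0.73), RNF14 (0.58) and USP10 (-0.35) in the authors' deposited table. No difference between these lists and the ribosomal protein genes was tested.

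The DAT against D comparison moved ribosomal protein genes little. The authors' deposited table called 0 of 81 members, against 6.62% of 10403 features, and 5 members had an unadjusted p under 0.05. On the same columns edgeR called 0 of 81 members and 0 of 20402 features. At an unadjusted p under 0.05 it had 11 members and 4251 features. The members' median was 0.03 and that of all features -0.04 in the authors' deposited table. There 60 of 81 members were above 0, beside 3257 of 10211 genes and 563 of 2142 genes averaging at least 100 CPM. The highest were RPL3 (0.13), RPL5 (0.11), RPL36A (0.11), RPL13A (0.10) and RPL9 (0.10) in the authors' deposited table. The lowest were RPL26L1 (-0.15), RPL7L1 (-0.07), RPLP2 (-0.06), RPS4X (-0.06) and RPL22L1 (-0.06) in the authors' deposited table, and none was called.

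RPL3, which lies at the peptidyl transferase centre, had 2070, 1978 and 2148 CPM in the DAT columns and 1658, 1668 and 2080 CPM in the D columns. The highest D library, labelled shCTRL VXN replicate 2, lay within the DAT range. Leaving out that library alone, DESeq2 called 18 members higher and 6 lower of 81, against 14.8% of 21018 features higher and 22.7% lower. RPL3 then had a log2 fold change of 0.27 (adjusted p = 1.33e-08, DESeq2) and RPL13A one of 0.23, with RPL26L1 at -0.33 and RPL22L1 at -0.25. These values come from the rerun, whose log2 fold changes are mostly further from 0 than those of the authors' deposited table. Set against the deposited values above, they do not measure the effect of that library. Leaving out any other single library of DAT or D, DESeq2 called 0 members. Those fits called at most 5 features higher and 8 lower, reached without shCTRL DMSO replicate 1 (3087 features tested). Over the 81 members 11 lay wholly above and 0 wholly below D, against 8.85% and 9.96% of features. Of the gene lists, chaperones had 3 lower and 0 higher among 14 (GRWD1 -0.38, BYSL -0.20 and RPS19BP1 -0.32), in the authors' deposited table. The other lists there had 1 higher and 2 lower initiation factors (EIF4A2 0.28, EIF6 -0.43, EIF3C -0.29), 1 higher and 2 lower mTORC1 genes (PDCD4 0.33, RPTOR -0.28, MTOR -0.17) and PELO at -0.30, in the authors' deposited table.

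The labelled knockdown comparison, the one named in the title, gave no called member. In the fit of all 9 libraries, edgeR's quasi-likelihood test with Benjamini-Hochberg adjustment called 0 of 81 members and 0% of 20402 features in shSLC6A3 DMSO against shCTRL DMSO. At an unadjusted p under 0.05 there was 1 member, RPL26L1 (log2 fold change 0.25, adjusted p = 0.978, edgeR), and 930 features. DESeq2 likewise called 0 members. Each group held 1 V library, with MKI67 at 73.7 and 74.4 CPM, beside libraries at 571 to 611 CPM. This mixture widens the spread within groups, so 0 calls do not show that the groups were alike. Without shSLC6A3 DMSO replicate 1, edgeR had 4 members and 2715 features at an unadjusted p under 0.05. Without shCTRL DMSO replicate 3 it had 0 members and 2221 features, and both fits called 0 features. The median was -0.04 over members and -0.01 over all features. Above 0 were 20 of 81 members, beside 9863 of 19488 genes and 1494 of 2145 genes averaging at least 100 CPM. The extremes by edgeR were RPL26L1 (0.25), RPL22L1 (0.19), RPL7L1 (0.10), RPLP2 (0.08) and RPS12 (0.06), and RPL3 (-0.19), RPL13A (-0.17), RPL28 (-0.14), RPS15A (-0.13) and RPL23A (-0.13). RPL3 had 1747, 1658 and 1668 CPM in shSLC6A3 DMSO and 2070, 1978 and 1741 CPM in shCTRL DMSO. Replicates 2 and 3 of shSLC6A3 DMSO are also D columns, and replicates 1 and 2 of shCTRL DMSO are DAT columns. The extremes here and those of DAT against D, of opposite sense, are therefore not separate observations.

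In shCTRL VXN against shCTRL DMSO, RPS29 stood apart. RPS29, a zinc-binding protein of the small subunit's head, had 221, 216 and 225 CPM in the libraries labelled VXN and 137, 168 and 160 CPM in those labelled shCTRL DMSO. The shSLC6A3 DMSO libraries had 160, 153 and 141 CPM, so all 3 VXN libraries lay above all 6 others. Over 81 members, 7 lay wholly above the other libraries, among them RPL13, RPL31, RPL39, RPS14, RPS21 and RPS29, and 1 wholly below (RPL35), against 1.77% and 1.53% of features. The 9-library fit by edgeR called 0 members and 0.00980% of 20402 features, with RPS29 at a log2 fold change of 0.51 (SE 0.104, unadjusted p = 0.00116, edgeR). At an unadjusted p under 0.05 there were 3 members, RPS29, RPS21 and RPL39, and 384 features. Among members DESeq2 called RPS29 alone (adjusted p = 0.00805, DESeq2), beside 9 features higher and 9 lower of 22022.

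Same-numbered libraries of these 2 groups deviated together from their group means (r 0.809, 0.844 and 0.943 over 20402 features). Replicate 3 is the V library of both groups, so these r values cannot tell whether numbers 1 and 2 pair libraries. Replicate 2 joins a D library (VXN) to a DAT library (DMSO). A fit with the replicate number as a block was made within the 6 libraries. With that block, edgeR called 3 members higher and 0 lower, against 1.04% of 19769 features called, 0.602% higher and 0.435% lower. RPS29 had 0.51 (SE 0.059, adjusted p = 0.000114, edgeR). RPL10 had 0.31 (adjusted p = 0.00404, edgeR), with 744, 761 and 1007 CPM in VXN and 604, 598 and 835 CPM in DMSO. Each VXN library was above the DMSO library of its number, and the groups overlapped. RPS21, a small-subunit protein, had 0.26 (adjusted p = 0.0289, edgeR), with 327, 308 and 321 CPM in VXN and 246, 276 and 276 CPM in DMSO. The lowest members were RPL35 (-0.17), RPS27 (-0.16), RPS24 (-0.14), RPL12 (-0.14) and RPL26 (-0.13), none called. Without pair 1, RPS21 lost its call and RPL35, RPS24 and RPS27 were called lower (-0.22, -0.24 and -0.22, edgeR). That fit called 173 features higher and 169 lower of 20085. As the VXN label and the number range coincide, these differences cannot be told apart from a difference between the ranges of library numbers.

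**Figure D5:**
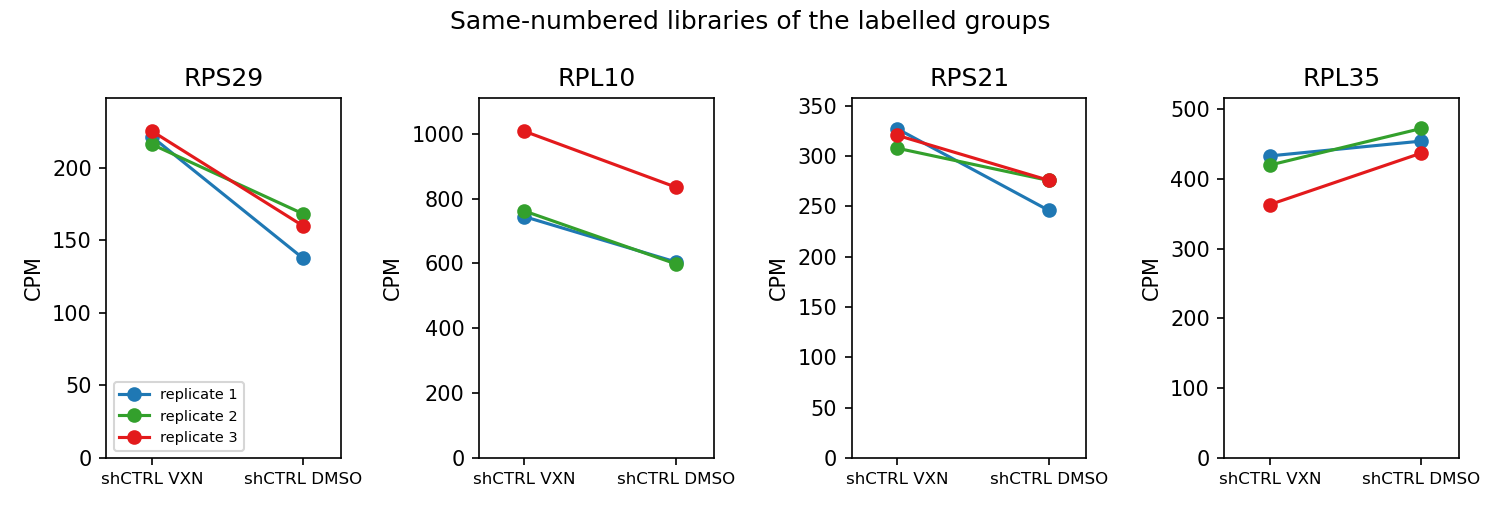
CPM of RPS29, RPL10, RPS21 and RPL35 in libraries labelled shCTRL VXN (left) and shCTRL DMSO (right), with lines joining same-numbered libraries. RPS29, RPL10 and RPS21 are higher in VXN in all 3 pairs, RPS29 at 216 to 225 CPM in VXN and 137 to 168 CPM in DMSO, and RPL35 is lower in all 3.

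In the labelled comparisons edgeR called 0 genes of each of the other lists. RPL22L1, RPLP2 and RPS26, named above for other comparisons, were not called in either labelled comparison.

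Across the 77 core genes, the V against D change was set beside their properties, as a description over genes that share libraries. Spearman's rho with the log2 fold change in the authors' deposited table was 0.04 for transcript length, -0.20 for coding length, 0.22 for mean CPM, -0.10 for GC content and -0.19 for the share of pseudogene counts. Pearson's r with the same log2 fold change in the authors' deposited table was 0.21 for transcript length, -0.20 for coding length, 0.07 for mean CPM, -0.11 for GC content and -0.31 for the share of pseudogene counts. For the VXN against DMSO change of the fit with the replicate block, rho was 0.06, -0.05, -0.06, 0.13 and 0.10 in that order. Its r was 0.03, -0.09, -0.08, 0.06 and 0.02. Over 9 libraries the highest core value was at most 1.5 times the lowest for 72 of 77 core genes, with RPL10 (1.71), RPS12 (1.66) and RPS29 (1.64) the most variable.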

How the data were processed

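RNA of 9 HCT116 libraries (3 groups of 3) was extracted with a Norgen kit and prepared with TruSeq RNA v2, which does not mark strand, per the labels' protocols. The submitters' processing notes name fastp 0.20.1, FastQC 0.11.9, STAR and DESeq2 1.34.0, and GRCh38. Counts in the authors' table are raw, per gene and per repeat subfamily; which program made them is not given in the sources used here. In the authors' 2 test tables the log2 fold changes are mostly nearer 0 than those of the DESeq2 rerun at the same p, and no shrinkage step is stated. Their p-values and adjusted p-values, and the base mean, a mean signal of normalised counts over all libraries, come from DESeq2, per the file headers and the submitters' processing notes.

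Labelled groups were compared with edgeR 4.0.16 (TMM, filterByExpr, quasi-likelihood, R 4.3.3) and DESeq2 1.42.0, adjusted over all features; an adjusted p below 0.05 was called. Member genes were given by extremes (5 per direction), paralogs and partners, stalk genes, RPSA, RPL5, RPL11, RPS6 and up to 4 called members per list. The fits were tested on simulated data. Members, gene lists and column sets were chosen with earlier results of these data known. RefSeq windows (GRCh38.p14) and GENCODE v29 gave sequences and lengths (Biopython 1.88, pandas 2.3.3). Same-numbered shCTRL DMSO and VXN libraries deviated together (r over 0.8), and those of shSLC6A3 and shCTRL DMSO did not throughout (r -0.79, 0.778 and -0.796). The V library is replicate 3 in both shCTRL groups and replicate 1 in shSLC6A3 DMSO. These r values therefore do not show which samples pair. The alternatives were other scalings, filters, tools, left-out libraries, a replicate block and the number range. Those on number range and on the block within 6 libraries were chosen after seeing the data. Some genes that count in the totals are not reported here by name.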

Additional observations from a re-analysis of the deposited data

Results flagged for a closer look

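The ribosomal protein share of counts moved in opposite directions in the 2 ranges of library numbers. V exceeded D by 0.224 percentage points in libraries outside the VXN number range (2 libraries against 2). In the VXN-labelled libraries (1 against 1) the difference was -0.383 percentage points. The difference between ranges was not tested.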

How the results depend on the processing

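In the V against D comparison 19 members higher stayed within 1.5 times under every alternative run, and leaving out each library gave 14 to 24. The 17 lower became 10 with edgeR and upper-quartile scaling, beside 5180 of 20402 features. They became 11 at an adjusted p below 0.01, a limit for which no count over all features is given. Leaving out each library gave 11 to 22 lower, with 11 without shCTRL DMSO replicate 3, shSLC6A3 DMSO replicate 3 or shCTRL VXN replicate 3. Over all features, the fits with a library left out called 4464 to 5610 higher and 4821 to 5880 lower, of 23259 to 24067 tested. In the DAT against D comparison 0 members were called under every alternative except 1. Without shCTRL VXN replicate 2, DESeq2 called 18 higher and 6 lower, beside 3114 higher and 4776 lower of 21018 features, and the cause was not tested. The edgeR fits called 0 of 20402 features as well, and leaving out any other library gave at most 5 features higher and 8 lower. In the shSLC6A3 DMSO comparison 0 members were called under every alternative, the replicate block included (0 higher and 0 lower). These fits called 0 features, except for 6 lower of 19944 in the block fit without pair 3. Same-numbered libraries there did not all deviate together. In the shCTRL VXN comparison the replicate block within all 9 libraries called 0 members and 0 features. DESeq2 called 1 member higher, beside 9 features higher and 9 lower. With the replicate block within the 6 libraries of the 2 groups, 3 members were higher, beside 119 features higher and 86 lower. Without pair 1 this was 2 higher and 3 lower, beside 173 and 169 features. Without pair 2 or pair 3 it was 3 higher, beside 133 and 66 or 100 and 80 features. The V, DAT and D sets mix labelled groups, so a replicate number marks no pair between them and was not used as a block there. With the number range as a term, 26 members were higher and 17 lower in V, beside 6296 and 5823 of 20402 features. In DAT that fit called 0 members and 0 features. Over all named genes, no called change turned its direction under the alternatives run. The mean share in V minus that in D stayed within 1 SD of the D libraries under every denominator and member choice. As a share of protein-coding counts it was 5.73% in V and 5.58% in D, and for the large subunit alone 3.404% in V and 3.416% in D, so the share sets no order between V and D. The DAT, shSLC6A3 DMSO and shCTRL VXN means of all members kept their side of D or shCTRL DMSO under those denominators. At these depths RPL3L, RPL10L and RPL39L, with at most 9 counts in any library, could not be compared.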
